A study of Mus musculus with 44 samples.

Results

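Arc, Homer1, Nptx1, Nptx2, Plk2, Plk3, Ptgs2 and Pcdh8 encode proteins that act at synapses and are known for responding to neuronal activity. They were taken by symbol from the RefSeq identifiers of the deposited tables, and all 8 were found among 17158 listed genes. Their RNA, ribosome-protected fragments (RPFs, the pieces of mRNA covered by ribosomes), translational efficiency (TE, the share of RPFs divided by the share of RNA-seq reads) and poly(A)-tail lengths were followed across 44 mouse libraries. These comprised 12 of RNA-seq, 12 of RPFs and 20 of tails, each from unmodified animals or from cells of such animals, with no genotype named in the labels.

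Primary cortical cultures were made from newborn pups of both sexes, about 5 animals to a culture, and received ara-C, which kills dividing cells, starting 2 days after plating. At day 14 in vitro (DIV14), 1 culture was unstimulated, 1 received BDNF for 30 min and 1 received glutamate with glycine (glu/gly) for 30 min. At DIV10, 1 culture was unstimulated and KCl was applied to 1 culture for 10 min and to another for 30 min. A further 3 cultures carried from day 5 a lentivirus with a synapsin promoter, which is active in neurons, expressing GFP alone, GFP with miR-1 or GFP with miR-155, and were taken at DIV14. The study's methods place 6 culture samples, which they do not name, in 2 batches with 2 litters each. The tissues were hippocampi of E16 embryos, the hippocampus of 1 adult male and the cortex of 1 adult male. Visual cortex came from 8 mice of 6 to 7 weeks kept in the dark for 1 week, of which 4 then saw light for 1 h. Only visual cortex had replicates, and it was profiled by tail sequencing alone (PAL-seq v2, as were both hippocampi, whereas TAIL-seq was used for the cultures and the adult cortex). All 12 other conditions had 1 library per assay, so their differences have no replicate check. Counting intervals were made for levels, folds and TE, and tail differences have no interval. The labels of 2 RPF libraries named both miRNAs, and these enter no comparison.

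Arc is an immediate-early gene whose protein promotes endocytosis of AMPA-type glutamate receptors. Homer1 encodes a postsynaptic scaffold that links metabotropic glutamate receptors to calcium stores, and its activity-induced short form ends earlier and competes with the long form. Nptx1 and Nptx2 (also called Narp) are secreted pentraxins that cluster AMPA receptors. Plk2 and Plk3 are polo-like kinases, and Plk2 is known to weaken synapses after prolonged activity. Ptgs2 (COX-2) makes prostaglandins, and Pcdh8 (arcadlin) is a protocadherin that takes N-cadherin into the cell.

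The counted transcripts, on the mouse assembly GRCm38 (mm10), were Arc NM_018790 at chr15:74669081-74672570 (minus strand), Homer1 NM_147176 at chr13:93303757-93405129 (plus), Nptx1 NM_008730 at chr11:119538719-119547820 (minus) and Nptx2 NM_016789 at chr5:144545887-144557478 (plus). Plk2 NM_152804 lay at chr13:110395044-110400844 (plus), Plk3 NM_013807 at chr4:117128655-117133963 (minus), Ptgs2 NM_011198 at chr1:150100031-150108234 (plus) and Pcdh8 NM_021543 at chr14:79766772-79771312 (minus). RNA-seq reads and RPFs were counted on the coding sequence without its first 50 nt, and tail tags on the annotated 3′ untranslated region (3′ UTR). For Homer1 this matters, because the short form NM_011982, with a coding sequence of 561 nt of which 527 nt are also in the counted form, is not listed in the tables. Its reads and RPFs could therefore count towards the long form, while its 3′ UTR of 772 nt shares 0 nt with the counted 3′ UTR, so tail tags describe the long form. Arc has 2 introns within its 3′ UTR. The Plk3 gene overlaps Tctex1d4 and the Pcdh8 gene overlaps the noncoding Gm9748, each on the opposite strand, and whether the counting used strand is not given in the sources used here.

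The 3′ UTRs of these genes differed in the word ATTTA, the core of AU-rich elements, which are known for recruiting factors that shorten the life of an mRNA. Among 15962 genes with a 3′ UTR of at least 100 nt, 67.5% held ATTTA at least once and the median density was 1.29 per kb. Homer1 held 19 copies in 2900 nt (6.55 per kb), Ptgs2 14 in 2452 nt (5.71 per kb) and Plk3 4 in 332 nt (12.1 per kb), densities above those of 96.7%, 95.1% and 99.6% of genes. Plk2 held 2 copies in 620 nt, Pcdh8 2 in 599 nt, Nptx2 2 in 1084 nt and Nptx1 1 in 3754 nt, and Arc held 0 in 1670 nt. Overlapping copies were counted on the sense strand only. The windows of 30 nt with the most copies are shown for the 3 densest genes and for Plk2, with ATTTA in capitals, read 5′ to 3′ on the coding strand from chr1:150105794-150105823 (Ptgs2, 12 nt after the stop codon), chr4:117128712-117128741 (Plk3), chr13:93402582-93402611 (Homer1) and chr13:110400745-110400774 (Plk2).
Ptgs2: ccatATTTATTTATTTAtgtgaagaATTTA
Plk3: cacttttATTTAttaacagacATTTATTTA
Homer1: tgaagattatatgctttttaaATTTATTTA
Plk2: tATTTAttacagccccaagagcagtATTTA

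RefSeq promoter sequences (GRCm38.p6, 250 bases before to 50 after the annotated start) were at hand for Homer1, Plk2, Plk3, Ptgs2 and Pcdh8. The word TGACG, read on both strands and the core of the cAMP response element bound by CREB, was searched in them because CREB is known for linking synaptic calcium to transcription. It was found 3 times for Homer1 (56, 40 and 14 bases before the start), 3 times for Plk2 (62 and 59 before the start, which overlap in the palindrome TGACGTCA, and at base 22 of the transcript), 2 times for Plk3 (132 and 63 before), once for Ptgs2 (base 14 of the transcript) and 0 times for Pcdh8. Over 32851 promoter windows of that length, 20.8% held the word, 5.01% held it 2 or more times, 1.04% 3 or more times and 1.79% held TGACGTCA. A second annotated start of Homer1 had 0 copies. These matches are words, not shown sites. The stretches from 150 bases before to 30 after the start, with TGACG or its complement CGTCA in capitals, lie at chr13:93303607-93303786 (Homer1, plus), chr13:110394894-110395073 (Plk2, plus), chr4:117133934-117134113 (Plk3, minus) and chr1:150099881-150100060 (Ptgs2, plus).
Homer1: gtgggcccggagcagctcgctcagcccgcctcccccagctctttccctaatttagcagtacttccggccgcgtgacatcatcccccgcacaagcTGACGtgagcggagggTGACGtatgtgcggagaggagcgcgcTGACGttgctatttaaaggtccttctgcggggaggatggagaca
Plk2: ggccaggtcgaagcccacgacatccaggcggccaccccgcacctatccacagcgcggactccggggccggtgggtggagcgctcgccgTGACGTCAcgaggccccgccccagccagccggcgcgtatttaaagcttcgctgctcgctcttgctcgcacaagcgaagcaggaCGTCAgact
Plk3: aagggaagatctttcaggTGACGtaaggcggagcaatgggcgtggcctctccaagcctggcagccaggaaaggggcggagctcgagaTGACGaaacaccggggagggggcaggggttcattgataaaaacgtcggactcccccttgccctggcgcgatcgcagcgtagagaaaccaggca
Ptgs2: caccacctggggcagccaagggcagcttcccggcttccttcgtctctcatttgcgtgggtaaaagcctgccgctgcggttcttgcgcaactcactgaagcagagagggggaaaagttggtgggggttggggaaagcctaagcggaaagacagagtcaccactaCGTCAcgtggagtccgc

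Depth limited what could be seen of the rarer members. Reads on genes ran from 448022 to 7689624 in 12 RNA-seq libraries, RPFs from 2812215 to 23212489 in the 10 assigned libraries, tail tags from 86841 to 1057812 in the 12 libraries outside visual cortex and from 1233538 to 4812273 in visual cortex. The 5 general neuronal markers (Rbfox3, Map2, Syt1, Snap25, Tubb3) were present in every RNA-seq and tail library. In the visual cortex their summed level was 7798 to 8775 CPM (counts of tags scaled to a library of 1000000) in dark mice and 8038 to 9159 in light mice, and that of 4 microglial markers 301 to 371 and 305 to 342. The 4 astrocyte markers leaned lower in the light, at 382 to 495 in the dark and 274 to 421 in the light. So did the 3 oligodendrocyte markers, at 536 to 813 and 344 to 638, and the 3 excitatory markers, at 3060 to 3396 and 2984 to 3186. The 3 inhibitory markers had a higher median in the light, at 594 (567 to 636) in the dark and 644 (536 to 700) in the light. The part of these sets in the light results was not tested. In the 9 cultures 3 excitatory markers summed to 134 to 387 RPM of RNA-seq reads and 4 astrocyte markers to 707 to 1520, against 2439 and 715 in adult cortex.

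Exposure to light for 1 h tested how these genes respond to sensory input in the animal. Arc, Ptgs2, Plk3, Nptx2 and Plk2 rose, and every light mouse lay above every dark mouse for each of them. Homer1, Nptx1 and Pcdh8 did not pass the test. Tags were tested by edgeR's quasi-likelihood method with Benjamini-Hochberg adjustment at 0.05 over 9554 genes, of which 1.21% rose and 0.126% fell, and 3.13% had 4 light mice above 4 dark mice. All 8 members entered, 5 of which rose and 0 of which fell (0 fell at an unadjusted p under 0.05 or by DESeq2), with a median log2 change of 1.31 beside -0.0047 over all genes. In whole tissue, a larger share of cells with the RNA and more RNA per cell cannot be told apart.

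Arc had 29.8, 27.8, 65.4 and 238 CPM in the 4 dark mice and 992, 1086, 741 and 402 in the 4 light mice. The dark mice spread widely, and dark mouse 4 came nearest to the light mice without reaching them. The log2 change was 3.29 ± 0.43 (SE, 9.81-fold, edgeR adjusted p = 2.49e-05), and 9 of all genes tested had a larger one. Dark mouse 4 set much of its size: without it the change was 21.5-fold, and over all 8 fits that left out 1 mouse it ran from 7.39-fold to 21.5-fold.

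Ptgs2 had 2.03, 2.47, 4.67 and 1.59 CPM in the dark mice, from 2 to 12 tags each, and 21.3, 23.8, 21.9 and 20.4 in the light mice. The light mice were close to each other and the groups were far apart. The log2 change was 3.03 ± 0.34 (8.17-fold, edgeR adjusted p = 2.26e-06), on far fewer tags than Arc had.

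Among the kinases, Plk3 had 10.2, 4.73, 6.23 and 3.97 CPM in the dark and 23.7, 20.6, 39.1 and 23.4 in the light. Its log2 change was 2.15 ± 0.31 (4.45-fold, edgeR adjusted p = 0.000113). Plk2, the more abundant kinase, had 222, 269, 224 and 298 in the dark and 423, 471, 360 and 346 in the light. All light mice were above all dark mice here as well, by a smaller factor, with a log2 change of 0.65 ± 0.11 (1.57-fold, edgeR adjusted p = 0.00107).

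The pentraxins differed from each other. Nptx2 had 10.2, 15.02, 29.6 and 18.2 CPM in the dark and 36.0, 72.2, 115 and 46.8 in the light, a log2 change of 1.97 ± 0.30 (3.92-fold, edgeR adjusted p = 0.000209). Nptx1 had 377, 367, 304 and 372 in the dark and 356, 361, 348 and 330 in the light. These groups overlapped, and the log2 change was -0.03 ± 0.09 (edgeR adjusted p = 0.966).

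Homer1 had 128, 120, 135 and 125 CPM in the dark and 129, 129, 136 and 145 in the light, with a log2 change of 0.10 ± 0.10 (edgeR adjusted p = 0.850). These are tags of the long form's 3′ UTR, and the short form was not analysed here. Pcdh8 had 110, 122, 145 and 128 in the dark and 117, 134, 130 and 182 in the light, with a log2 change of 0.17 ± 0.13 (edgeR adjusted p = 0.750).

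**Figure D1:**
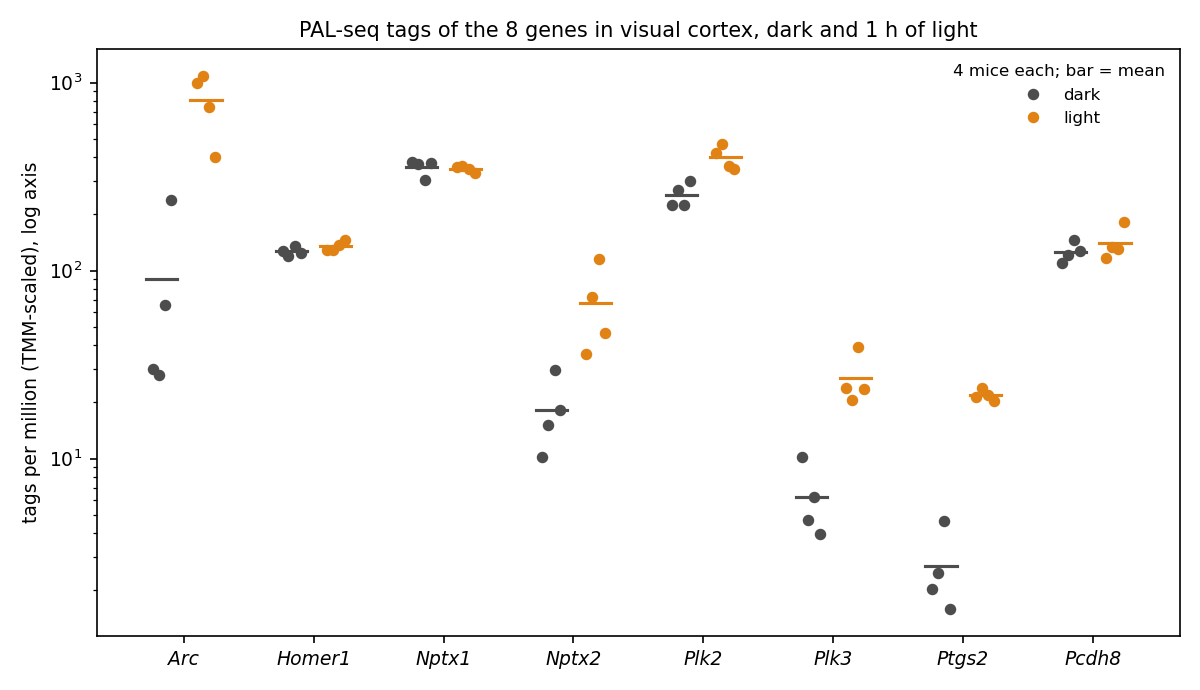
Tags in CPM (log axis) of the 8 genes in the visual cortex of 4 dark and 4 light mice, each point a mouse and each bar a mean. The light points sit above all dark points for Arc, Nptx2, Plk2, Plk3 and Ptgs2 and among them for Homer1, Nptx1 and Pcdh8.

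The poly(A) tails of Arc and Nptx2 changed in opposite directions after light. Arc had mean tails of 101, 122, 129 and 121 nt in the dark mice and 72.8, 80.1, 97.5 and 72.4 nt in the light mice. No light mouse reached a dark one, and the group means were 118 ± 11.9 nt and 80.7 ± 11.7 nt (SD, n = 4 mice each). The difference of -37.5 nt had p = 0.0286 in a two-sided exact permutation test over 70 splits, which is the smallest p this design allows. Among genes with at least 50 tags in the same mouse, Arc tails were longer than those of 99.19% to 99.96% in dark mice 2 to 4 and than those of 10.3% to 49.0% in the light mice.

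Nptx2 had mean tails of 88.0, 83.1, 68.6 and 86.8 nt in the dark (15, 73, 38 and 23 tags) and 135, 149, 145 and 122 nt in the light (44, 112, 200 and 78 tags). Again the groups did not overlap, with means of 81.6 ± 8.91 nt and 137 ± 12.1 nt (SD, n = 4 mice each). Of genes with at least 50 tags in every mouse, 0.625% did not overlap, a set that held neither Arc nor Nptx2. No such share was taken for genes with fewer tags. The difference was 55.8 nt (exact permutation p = 0.0286). In light mice 2 to 4, where it had at least 50 tags, the Nptx2 tail was longer than that of 99.76% to 99.95% of genes.

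For the other 6 members light and dark tails overlapped. The differences, light minus dark, were 11.3 nt for Ptgs2, 6.57 nt for Pcdh8, 4.85 nt for Homer1, 1.40 nt for Plk2, 1.27 nt for Nptx1 and -2.63 nt for Plk3, with exact permutation p from 0.257 to 0.8286 (n = 4 mice a group). In all 8 permutation tests were made, and their p-values are not adjusted. Ptgs2 and Plk3 rested on as few as 2 and 5 tags in a mouse. Homer1 tails were short in both groups, at 79.7, 71.1, 72.2 and 58.1 nt in the dark and 66.9, 83.7, 84.1 and 65.8 nt in the light, longer than those of 1.04% to 27.9% of genes. Over all 4321 genes with at least 50 tags in every mouse, the median difference was 3.75 nt, with 5th and 95th percentiles of -2.67 and 12.4 nt. The median tail over genes varied between mice, from 77.5 to 92.4 nt in the dark and from 81.7 to 97.5 nt in the light.

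Across genes, mean tails were tested by limma where a gene had at least 50 tags in all 8 mice. Of those genes 0.231% were called at an adjusted p under 0.05, and 0.625% did not overlap between groups. Homer1, Nptx1, Plk2 and Pcdh8 entered and 0 passed (0 at an unadjusted p under 0.05, limma adjusted p = 0.999 for each, SE 6.68 nt). Arc missed the tag minimum through dark mouse 1 with 44 tags. That mouse also had the shortest Arc tail of the dark mice, at 101 nt, so leaving it out widens the difference. Without it the Arc difference was -43.2 nt (limma adjusted p = 1.32e-06). With a minimum of 20 tags over all mice the difference was -37.5 nt (limma adjusted p = 0.00687). The call was lost with a minimum of 20 tags once each mouse was centred on its median tail (-41.7 nt, limma adjusted p = 0.196) and with a minimum of 10 tags (-37.5 nt, 0.144). With values weighted by tags, the difference was -38.5 nt at both lower minimums (limma adjusted p = 3.8e-07 at 20 tags and 3.68e-07 at 10). Nptx2 entered at a minimum of 10 tags, with a limma adjusted p of 0.00269.

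**Figure D2:**
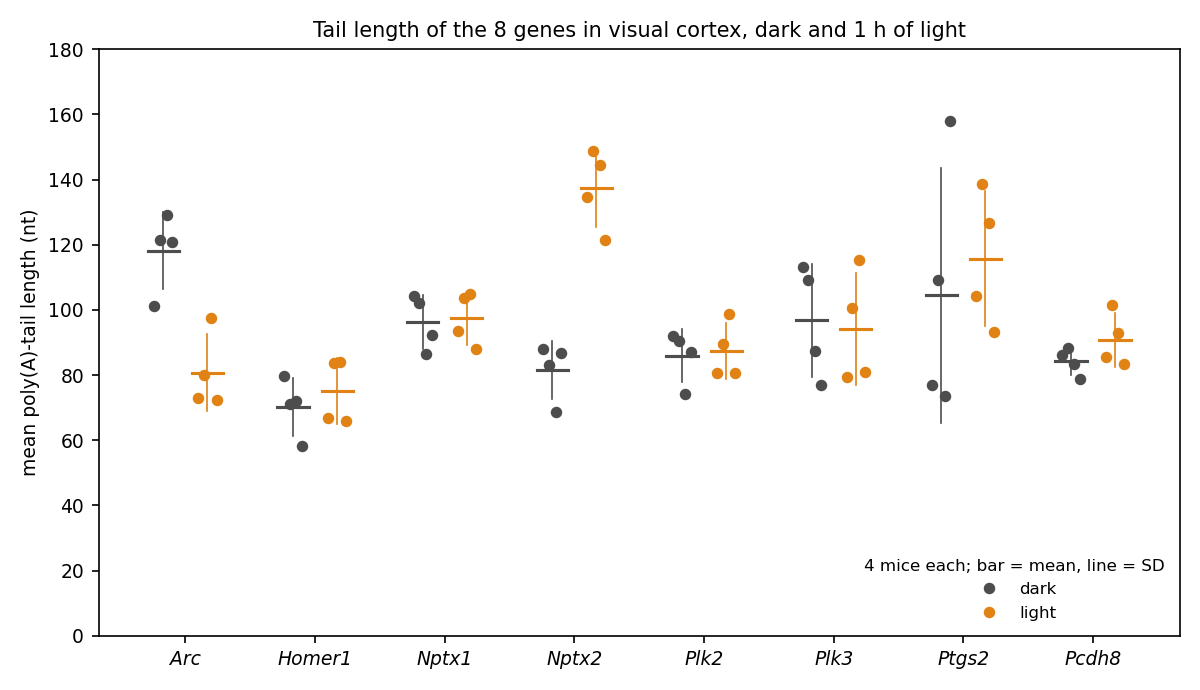
Mean poly(A)-tail length in nt of the 8 genes in 4 dark and 4 light mice, each point a mouse, each bar a mean and each line its SD. Arc tails are shorter and Nptx2 tails longer in all light mice than in any dark mouse, and the points of the other 6 genes overlap.

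In DIV14 cultures, BDNF and glu/gly were compared with the same unstimulated libraries, so both comparisons share those values. Arc rose in RNA and RPFs after each stimulus, and was the only member whose RPFs passed 2-fold. With 1 library per condition a difference was called when it reached 2-fold with at least 20 counts in both libraries together, and intervals are 95% Clopper-Pearson intervals that cover counting error only. RNA-seq reads called up after BDNF were 1.61% of genes and called down 2.71%, and for RPFs 0.845% and 3.09%. After glu/gly these were 3.13% and 2.98% for RNA-seq and 0.812% and 2.92% for RPFs.

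Arc had 10 RNA-seq reads in the unstimulated library, 249 after BDNF and 117 after glu/gly, and 199, 3201 and 1033 RPFs in the same order. Its RPFs stood at 40.2 RPKM (RPFs per kb of counted coding sequence in a library of 1000000) without stimulus, 759 RPKM after BDNF and 322 RPKM after glu/gly. The RPF fold was 18.9 (16.4 to 21.9) after BDNF and 8.01 (6.87 to 9.37) after glu/gly, above those of 99.99% and 99.96% of genes. The RNA-seq folds were less precise because of the 10 control reads, at 26.4 (14.1 to 55.8) and 9.90 (5.19 to 21.2). TAIL-seq tags of Arc numbered 32 without stimulus, 385 after BDNF and 126 after glu/gly. They gave smaller folds of 11.9 (8.26 to 17.6) and 5.135 (3.46 to 7.825), with intervals that overlap those of RNA-seq. Astrocyte markers summed to 1403 RPM without stimulus, 1064 after BDNF and 1154 after glu/gly, and excitatory markers to 279, 284 and 387, and their part in the differences was not tested.

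Of the 6 members with enough RNA-seq reads, 2 were called up after BDNF (Arc and Nptx2) and 2 after glu/gly (Arc and Plk3), with median folds of 1.39 and 1.36 beside 0.998 and 0.967 over all genes. Nptx2 had 4 and 17 reads (4.51-fold, 1.47 to 18.4), but its RPFs were 122 and 118 (1.14-fold, 0.873 to 1.47) and its TAIL-seq tags 45 and 61. Plk3 had 7 and 18 reads after glu/gly (2.18-fold, 0.867 to 6.16), an interval that includes no change, and 47 and 25 RPFs (0.820-fold, 0.484 to 1.36). Both calls thus rest on few reads and were absent from the RPFs.

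Plk2 stayed under 2-fold with intervals that lay above 1. It had 1463 RPFs without stimulus, 2091 after BDNF and 1310 after glu/gly, folds of 1.68 (1.57 to 1.79) and 1.38 (1.28 to 1.49). The first was above 98.3% of genes. Its RNA-seq fold after BDNF was 1.56 (1.35 to 1.81). Homer1 RPFs numbered 264, 263 and 132, folds of 1.17 (0.981 to 1.39) and 0.771 (0.621 to 0.954). Nptx1 RPF folds were 0.935 and 0.969, with intervals that include 1. Pcdh8, the member with most RPFs here, had 3981, 3854 and 3147 of them, folds of 1.14 (1.09 to 1.19) and 1.22 (1.16 to 1.28). Ptgs2 was near the limit of detection, with 13, 14 and 14 RPFs and 2, 3 and 3 RNA-seq reads.

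KCl depolarises neurons and opens their voltage-gated calcium channels. In DIV10 cultures Arc had risen at 30 min but not detectably at 10 min, whereas Homer1 RPFs were lower at both times. The 10 and 30 min cultures share 1 control. RNA-seq calls at 10 min were 1.21% of genes up and 2.97% down and RPF calls 1.37% and 6.28%. At 30 min they were 2.5% and 7.94% for RNA-seq and 1.61% and 6.20% for RPFs.

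Arc had 69 RPFs in the control, 49 at 10 min and 266 at 30 min in libraries of different depth, or 6.38, 7.79 and 76.5 RPKM. The folds were 1.22 (0.8285 to 1.79) at 10 min and 12.0 (9.17 to 15.9) at 30 min. Its RNA-seq reads were 15, 11 and 34, folds of 1.65 (0.684 to 3.83) and 3.36 (1.78 to 6.64). TAIL-seq tags at 30 min gave 4.41-fold (2.15 to 10.2).

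Homer1 had 442 RPFs in the control, 109 at 10 min and 69 at 30 min, or 44.4, 18.8 and 21.5 RPKM. This was the only member called down, with RPF folds of 0.424 (0.340 to 0.524) and 0.485 (0.371 to 0.627). In these folds Homer1 stood above 3.5% and 5.53% of genes, where 6.28% and 6.20% of all genes were called down. Its RNA-seq reads numbered 113, 60 and 119, folds of 1.19 (0.856 to 1.64) and 1.56 (1.197 to 2.04), while its TAIL-seq tags gave 0.891 (0.543 to 1.45) and 0.978 (0.629 to 1.53). The share of short-form RNA behind these counts was not tested.

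Of the members with enough RNA-seq reads, 0 of 6 were called at 10 min and 2 of 7 were called up at 30 min, and among RPFs 1 of 8 was called down at 10 min and 1 up and 1 down at 30 min. The second RNA-seq call at 30 min was Nptx1 with 11 and 15 reads (2.02-fold, 0.868 to 4.87), and its RPF fold was 1.34 (0.992 to 1.79). Plk2 RPF folds were 1.12 (1.05 to 1.18) and 1.35 (1.26 to 1.44), those of Pcdh8 1.43 (1.37 to 1.48) and 1.36 (1.30 to 1.42). Plk3 RPFs fell short of the call, with folds of 0.692 (0.507 to 0.935) and 0.666 (0.443 to 0.975). Nptx2 RPF folds were 1.16 (0.892 to 1.51) and 1.53 (1.14 to 2.04), and Ptgs2 had 27, 25 and 16 RPFs.

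**Figure D3:**
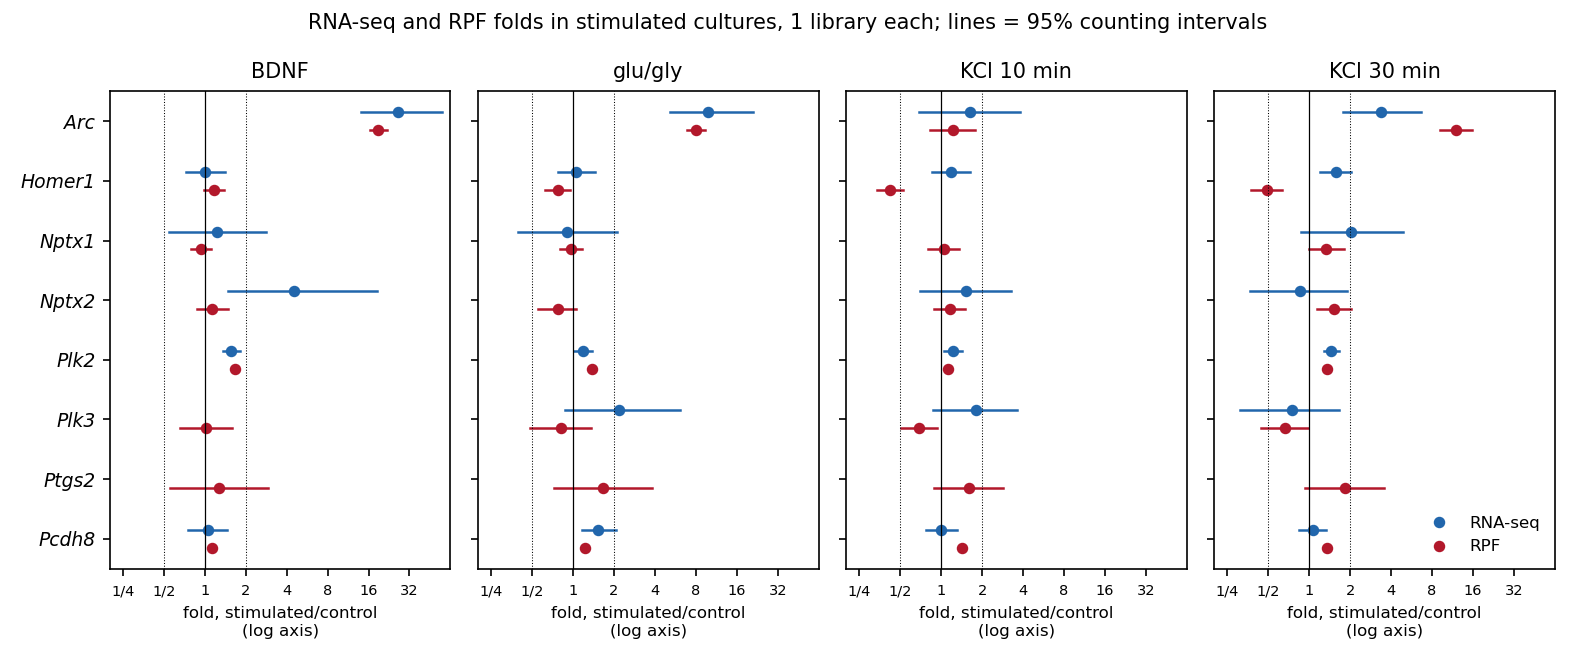
Fold of stimulated over control culture (log axis) for RNA-seq reads and RPFs of the 8 genes after BDNF, glu/gly and KCl for 10 and 30 min, 1 library each, with 95% counting intervals and dotted lines at 2-fold. Arc RPFs stand at 18.9, 8.01, 1.22 and 12.0, and Homer1 RPFs lie below the lower dotted line in both KCl cultures.

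TE spread widely among the members, and moved with KCl for Arc, Homer1 and Plk3. It was given as log2 where a gene had at least 10 reads and 10 RPFs, and is comparable only between conditions whose RNA was prepared the same way. Over 10 conditions Pcdh8 ranged from 0.89 to 3.27 with a median of 2.33, higher than 85.3% to 99.7% of genes in the same condition. Nptx1 had a median of 1.42 over 9 conditions. Homer1 ranged from -2.71 to 0.30 (median -1.24) and Plk3 from -2.84 to -0.05 over 7 conditions. Arc ranged from -1.22 to 1.39, Plk2 from -0.98 to 0.86 and Nptx2 from -0.43 to 0.81 over 9 conditions. Ptgs2 could be measured in the adult tissues only, at 0.46 and 0.66. These ranges and medians pool differently prepared RNA, so their ends are not directly comparable. Hippocampal values set the high ends of Homer1 and Plk2 and the low ends of Plk3 and Pcdh8. Outside the hippocampi, the highest values were -0.88 for Homer1 and -0.30 for Plk2, both in adult cortex. The lowest there were -1.75 for Plk3 (glu/gly) and 1.86 for Pcdh8 (adult cortex).

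Changes in TE of 2-fold either way were found for 2.89% of genes after BDNF, 4.74% after glu/gly, 9.49% after KCl for 10 min and 11.8% after KCl for 30 min. Among members, 0 of 5 changed that far after BDNF or glu/gly, 2 of 6 at 10 min of KCl and 2 of 7 at 30 min. Arc TE was 1.22 unstimulated, 0.74 after BDNF and 0.92 after glu/gly, changes of -0.49 (-1.42 to 0.45) and -0.31 (-1.26 to 0.65) with intervals that include 0.

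With KCl for 30 min Arc TE went from -0.79 to 1.04, a change of 1.83 (0.88 to 2.79) that was above 99.8% of genes. At 10 min it was -1.22, a change of -0.43 (-1.67 to 0.81). The Arc value in the DIV10 control rested on 15 reads and 69 RPFs. Homer1 TE fell from -1.02 to -2.52 at 10 min and -2.71 at 30 min, changes of -1.49 (-2.03 to -0.95) and -1.69 (-2.21 to -1.17), lower than all but 2.37% and 0.910% of genes. Plk3 was the other member called, with a change of -1.38 (-2.42 to -0.34) at 10 min and -0.15 (-1.38 to 1.07) at 30 min. The Plk3 call rested on 20 RNA-seq reads in the control and 16 at 10 min.

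**Figure D4:**
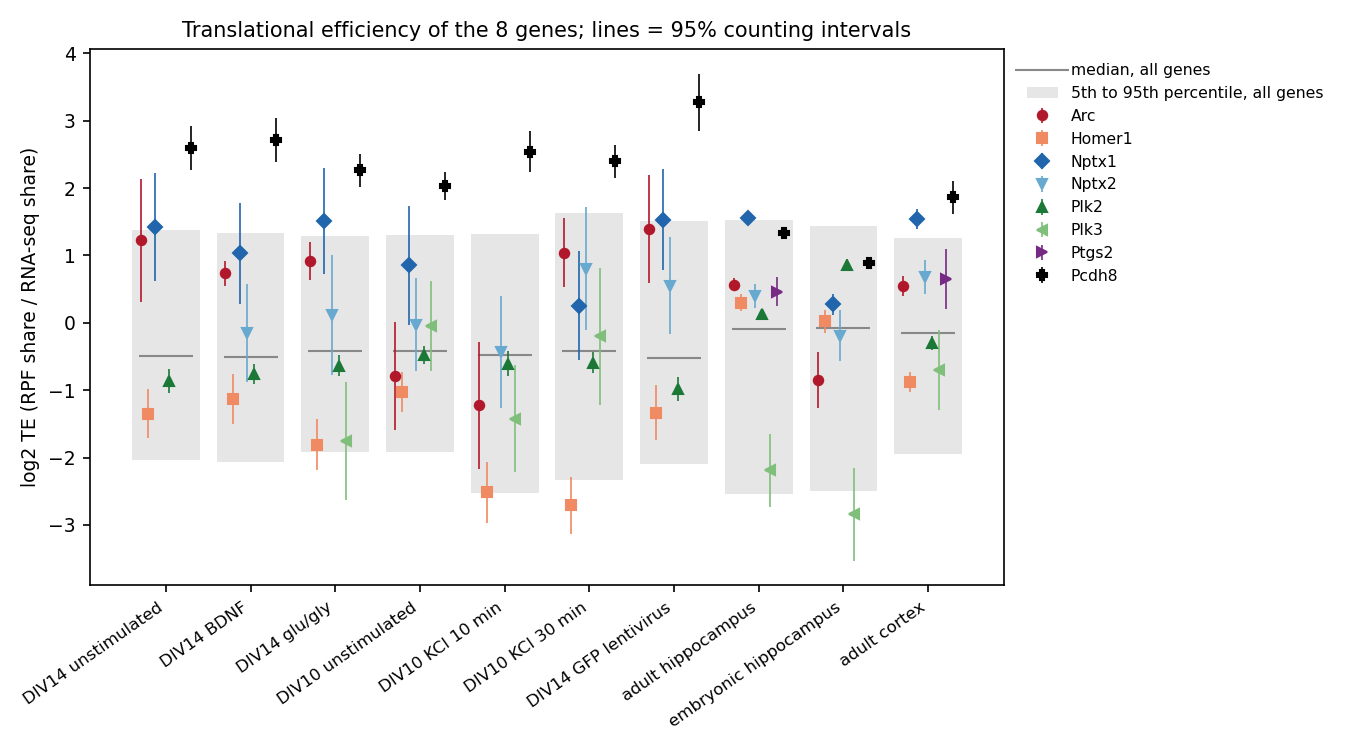
Log2 TE of the 8 genes in 10 conditions, 1 library of each assay per condition, with 95% counting intervals. Pcdh8 stays highest in most conditions, Arc rises from -0.79 to 1.04 between the DIV10 control and KCl for 30 min, and Homer1 falls from -1.02 to -2.71.

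Tails in the stimulated cultures were measured by TAIL-seq at other times than in visual cortex, so the values stand side by side and were not compared. Arc tails averaged 120 nt in the unstimulated DIV14 culture (32 tags), 146 nt after BDNF (385 tags) and 132.5 nt after glu/gly (126 tags). With a minimum of 20 tags the differences were 26.6 and 12.8 nt, above those of 99.2% and 95.3% of genes. After KCl they averaged 129.8 nt at 10 min (4 tags) and 129.7 nt at 30 min (51 tags), beside 147 nt from 9 tags in the control.

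With the study's minimum of 50 tags in both cultures, a difference of 10 nt either way was seen for 15.3% of genes after BDNF, 23.0% after glu/gly, 15.4% after KCl for 10 min and 16% after KCl for 30 min. Plk2 tails went from 107 to 123 nt after BDNF and Pcdh8 tails from 112 to 123 nt, while Homer1 tails went from 112 to 98.3 nt. These are 3 of the 4 members measured, and the differences of 16.1, 10.96 and -13.8 nt compare with 5th and 95th percentiles of -12.5 and 11.2 nt over all genes. After glu/gly, Homer1 differed by -17.5 nt and Nptx1 by -13.2 nt, 2 of 4 members, where all genes had a median of -4.68 nt. After KCl for 10 min Plk2 differed by -14.1 nt and Pcdh8 by 9.25 nt, so 1 of 2 was called, and at 30 min 0 of 2. At the lower minimum of 20 tags, Homer1 tails were 82.8 nt in the DIV10 control (39 tags), 98.5 nt at 10 min (33 tags) and 122.5 nt at 30 min (49 tags). The last difference, 39.7 nt, exceeded that of 99.9% of genes in the same culture whose Homer1 RPFs were lower.

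The levels of the members across conditions were set side by side as RPFs in RPKM, since the RNA of the hippocampi was poly(A)-selected and that of the adult cortex and of 6 cultures was depleted of ribosomal RNA. Arc spanned the widest range after Ptgs2. It stood at 4.61 (3.83 to 5.50) in embryonic hippocampus, 6.38 (4.96 to 8.08) in unstimulated DIV10 culture, 7.79 (5.76 to 10.3) after KCl for 10 min, 40.2 (34.8 to 46.2) in unstimulated DIV14 culture and 66.9 (58.4 to 76.2) with GFP lentivirus. Above these came KCl for 30 min at 76.5 (67.6 to 86.2), adult hippocampus at 204 (199 to 210), adult cortex at 320 (309 to 333), glu/gly at 322 (303 to 342) and BDNF at 759 (733 to 786). Neighbours whose intervals overlapped, and which were therefore not separated, were the first and the second, the second and the third, the GFP and KCl 30 min cultures, and the adult cortex and glu/gly culture.

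The other members kept other orders. Nptx1 was low in the 3 DIV10 cultures (13.4 to 17.9 RPKM, with overlapping intervals), stood between 51.1 and 55.3 in the unstimulated, BDNF and glu/gly cultures of DIV14 and in embryonic hippocampus, which also overlapped, and was far higher in adult cortex (539) and adult hippocampus (1169). Nptx2 went from 7.05 in embryonic hippocampus to 107 in adult cortex, both apart from their neighbours, and did not separate the GFP culture (44.8) from adult hippocampus (47.3). Homer1 was lowest with KCl for 10 and 30 min (18.8 and 21.5, overlapping), ran in overlapping steps from 43.5 in embryonic hippocampus to 67.7 after BDNF, and was highest in adult hippocampus (104) and adult cortex (163).

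Plk2 was the steadiest in RPFs, from 125 RPKM in embryonic hippocampus to 283 after BDNF, and both ends were apart from their neighbours. Plk3 was lowest in embryonic and adult hippocampus (0.545 and 1.10, overlapping) and lay between 4.69 and 8.57 elsewhere. Pcdh8 was lower in the 3 tissues (85.1 to 147) than in any culture (209 to 354). Ptgs2 had 1 RPF in embryonic hippocampus, stood between 1.61 and 4.61 in the cultures, where neighbours overlapped, and reached 24.0 in both adult tissues.

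**Figure D5:**
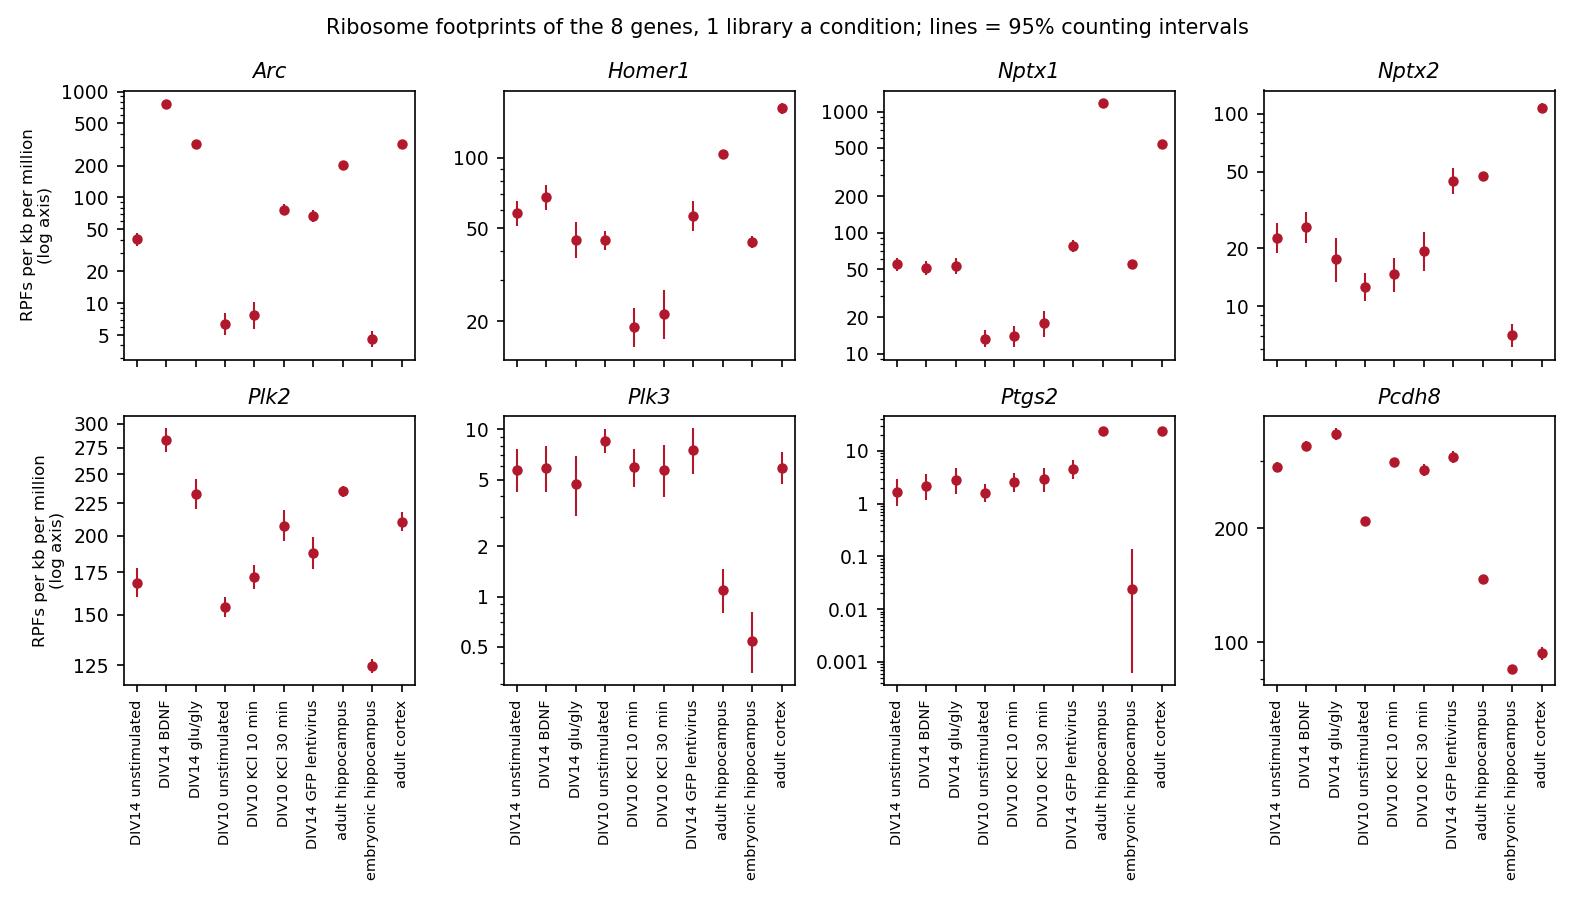
RPFs in RPKM (log axes, 1 panel per gene) in 10 conditions, 1 library each, with 95% counting intervals. Arc ranges from 4.61 in embryonic hippocampus to 759 after BDNF, Nptx1 reaches 1169 in adult hippocampus, and Pcdh8 is lower in the tissues than in the cultures.

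Adult and embryonic hippocampus shared the poly(A) protocol and could be compared in RNA as well. Of the 8 members, 5 were called up in adult RNA and 6 in adult RPFs, where 22.3% and 30.3% of all genes were called up. Arc had 73 embryonic and 1145 adult reads (16.6-fold, 13.1 to 21.3) and 122 and 5051 RPFs (44.4-fold, 37.1 to 53.6). Nptx1 had 439 and 3628 reads (8.73-fold, 7.90 to 9.66) and 1604 and 31636 RPFs (21.1-fold, 20.1 to 22.2). For both, RPFs exceeded RNA in fold.

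The remaining members differed less or were rarer. Ptgs2 had 2 embryonic and 224 adult reads (ratio 118, 32.4 to 983) and 1 and 918 RPFs (ratio 984, 176 to 38902), so the size of these ratios is loosely set. Nptx2 was higher by 4.43-fold in RNA (3.45 to 5.76) and 6.71-fold in RPFs (5.78 to 7.82). Plk2 was higher by 3.12-fold in RNA (2.91 to 3.35) and 1.89-fold in RPFs (1.83 to 1.95). Homer1 stood at 1.97-fold and 2.39-fold, Plk3 at 1.28-fold and 2.01-fold and Pcdh8 at 1.27-fold and 1.73-fold. TE of 2-fold difference either way was found for 34.5% of genes, and for 2 of 7 members, Arc with 1.42 (0.99 to 1.85) and Nptx1 with 1.28 (1.12 to 1.44). Plk2 had the opposite sign, at -0.73 (-0.84 to -0.62).

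Cell types moved with age in these tissues. The summed RNA of 3 excitatory neuron markers was 268 RPM in embryonic and 5144 in adult hippocampus, that of 3 oligodendrocyte markers 13.3 and 956 with Mog at 0 in the embryo, that of 4 astrocyte markers 287 and 1062 and that of 3 progenitor markers 226 and 37.1. The 5 general neuronal markers had 2632 and 3468. The part of these shifts in the members' differences was not tested.

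In the miRNA cultures, Arc had 13 reads with GFP alone, 69 with miR-1 and 108 with miR-155 in libraries of rising depth, and Nptx2 had 17, 87 and 45. With miR-1 both were called up in RNA, 2.46-fold (1.35 to 4.84) and 2.37-fold (1.40 to 4.25), 2 of 7 members where 2.92% of genes were called up. Their TAIL-seq tags gave 1.43-fold (0.707 to 3.01) and 1.43-fold (0.953 to 2.16). With miR-155 the RNA folds were 1.76 (0.989 to 3.42) for Arc and 0.562 (0.315 to 1.05) for Nptx2, and the Nptx2 tags gave 0.337-fold (0.179 to 0.606). The 3 excitatory markers summed to 188 RPM under GFP alone and to 348 and 295 in the miR-1 and miR-155 cultures. The 3 inhibitory markers went the other way, at 1259, 755 and 865 in the same order, and the 4 astrocyte markers had 1047, 857 and 707. The part of these shifts in the values above was not tested. The mature miR-155 of the mouse, with bases 2 to 8 (its seed) in capitals, is shown because its match was searched in the members' 3′ UTRs.
miR-155-5p: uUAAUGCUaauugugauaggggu
The seed match AGCATTA was found in the 3′ UTR of 8.40% of genes and of 0 of the 8 members.

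Partner genes of each member were taken from 6 lists by role and not by how they moved. After light 0 were called, whereas some were called in the cultures. After light, 34 of 49 were tested by edgeR and 0 passed, with 1 at an unadjusted p under 0.05 (Camk2b, log2 change 0.20 ± 0.09) and 0 by DESeq2. The median log2 change was 0.01 for Arc's partners in AMPA-receptor endocytosis, -0.09 for the Homer scaffold, 0.20 for pentraxin partners, 0.03 for polo-like kinases and Plk2 substrates, -0.14 for prostaglandin synthesis and reception and -0.07 for protocadherins and Pcdh8 partners. Their tails were tested for 23 genes by limma, and 0 passed, 0 of them at an unadjusted p under 0.05.

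In the cultures, 0 of 36 partners passed 2-fold in RNA-seq after BDNF, where 1.61% of all genes were called up and 2.71% down. After glu/gly 3.13% of all genes were called up, and 6 of 35 partners were. Among the latter were the Homer-binding scaffolds Shank1 (4.27-fold, 2.68 to 7.08), Shank2 (2.44-fold) and Shank3 (2.404-fold), the Plk2 substrate Sipa1l1 (2.41-fold), and Pcdh1 (2.401-fold). The RPF folds of these 5 genes lay between 0.832 (Shank3) and 1.28 (Shank1). In RPFs 3.09% of all genes were called down after BDNF and 2.92% after glu/gly. RPFs called down were Homer3 (0.383-fold), Plk1 (4 against 24 RPFs, 0.196-fold) and Ptges (0.411-fold), 3 of 41, after BDNF and Plk1 (0.321-fold), 1 of 40, after glu/gly.

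After KCl for 10 min, 0 of 38 partners were called in RNA-seq and 2 of 43 fell in RPFs, the endophilin Sh3gl3 (0.322-fold, 0.172 to 0.564) and Homer2 (0.494-fold, 0.345 to 0.695). At 30 min 2 of 38 were lower in RNA-seq, Sh3gl2 (0.414-fold) and Pcdh1 (0.489-fold). In RPFs 2 of 43 were lower, Homer2 (0.427-fold, 0.257 to 0.676) and Ptges (0.437-fold). Homer2 RNA folds at the same times were 0.841 (0.520 to 1.33) and 0.721 (0.467 to 1.09). Of all genes, RPFs were called down for 6.28% at 10 min and 6.20% at 30 min, and RNA-seq reads for 7.94% at 30 min.

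Likeness to Arc was measured by Pearson's r over libraries. Over the 12 RNA-seq libraries (log2 of RPM + 1, 11178 genes) the highest r were those of Nr4a1 (0.94), Plekhm3 (0.92), Egr4 (0.91), Lrtm2 (0.87) and Zfc3h1 (0.86). Over the 8 visual cortex libraries (9553 genes) they were those of Npas4 (0.995), Fos (0.985), Dusp1 (0.983), Ccn1 (0.98) and Aopep (0.977). Among the members, Plk2 came closest to Arc in visual cortex (0.92), followed by Ptgs2 (0.84), Nptx2 (0.82) and Plk3 (0.74), then Homer1 (0.40), Pcdh8 (0.26) and Nptx1 (-0.04). The points share conditions and depth, and dark and light mice form separate groups among them. The 12 RNA-seq libraries also mix poly(A)-selected hippocampal RNA with RNA depleted of ribosomal RNA. The r values are therefore descriptions.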

How the data were processed

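In the RNA-seq and RPF tables the authors deposited read counts per RefSeq transcript with its counted length. The same tables hold RPKM and RPM values that the authors scaled to a larger library total, which were not used here. In the tail tables they deposited tag counts and a mean tail length in nt per gene. According to the study's methods and the submitters' processing notes, reads were mapped to mm10 with STAR (the notes list version 2.4.2) and assigned with bedtools. Reads and RPFs were counted on coding sequences without the first 50 nt and tags on 3′ UTRs, and tail lengths were called from the sequencing signal by hidden Markov models. The hippocampal tail values, deposited in steps that read as medians, were not compared with the others. The 8 members and the partner and marker lists were chosen with earlier results of these data known. All members are named, and partners are named when past a threshold, except for some results that are not reported here.

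Visual cortex tags were tested with edgeR 4.0.16 (TMM scaling, filterByExpr, quasi-likelihood test, light as the only term) and mean tails with limma 3.58.1 (at least 50 tags in each mouse), both adjusted by Benjamini-Hochberg over all genes tested, and with exact permutation tests per member. Alternatives were DESeq2 1.42.0, other scalings, filters and tag minimums, leaving out 1 mouse, and a replicate block. CPM for tags used TMM library sizes, RPKM and RPM the counts on listed genes. The tests were checked on simulated data. For limma the prior degrees of freedom were infinite, so all genes shared 1 SE. Conditions with 1 library were compared by the ratio of shares with Clopper-Pearson intervals at 95%, which cover counting error only, as PCR copies are not independent molecules. TE changes used the 4 counts behind them. Gene models, 3′ UTRs and promoters came from the RefSeq annotation of GRCm38, whose coding lengths less 50 nt equalled the deposited lengths of all 8 members. No pair of visual cortex libraries of the same group agreed within sampling noise. The mature sequence of miR-1 was not used here.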

Additional observations from a re-analysis of the deposited data

Results flagged for a closer look

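In the dark mice, Nptx1 had 303.6 CPM in dark mouse 3, below 367 to 377 in the others, a gap of more than the 95% limit for 4 values (Dixon's test). In the light mice, Plk3 had 39.1 CPM in light mouse 3, above 20.6 to 23.7 in the others. These were 2 of 32 groups of 4 mice examined, and chance flags about 1 in 20.

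The 2 RPF libraries whose labels name both miRNAs entered no comparison, and members stood in them above, at or below the level of the GFP culture. In the library with 817114 RPFs, Arc stood at 121 RPKM (95% counting interval 99.9 to 146) where GFP had 66.9. Nptx2 stood at 69.1 (53.9 to 87.3) where GFP had 44.8, and Ptgs2 at 11.8 (6.87 to 18.9) where GFP had 4.61. In the library with 6428048 RPFs, Homer1 stood at 73.1 (66.8 to 79.9) where GFP had 56.5, and Pcdh8 at 331.1 (323 to 339) where GFP had 307. In that library Arc was at 67.8 RPKM, Nptx2 at 22.1, Nptx1 at 65.3 where GFP had 77.4, and Ptgs2 at 2.64.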

How the results depend on the processing

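Of 383 values of single members under alternatives, 378 kept their side of the threshold and 0 called values reversed. A member under an alternative's minimum of counts or tags dropped out and was not among the 383. Values that were not called changed sign 25 times, in 13 results, among them the tails of Nptx1 and Plk2 after light (-2.75 and -2.62 nt after centring) and, by TAIL-seq tags, Homer1 and Nptx2 RNA after KCl for 10 and 30 min. Of the others 3 moved (Nptx2 and Nptx1 RNA by TAIL-seq tags, Nptx1 tails) and 2 lost the call (Arc tails, given above). Among counts of calls, over members or over all genes, 71 stayed within 1.5 times of the main count and 31 did not. The 5 members called after light were called under every alternative tried, and the count over all genes (128) stayed within 1.5 times. Replicate numbers did not pair the mice (correlations of same-numbered mice from -0.196 to 0.0311 for tags and -0.113 to 0.0405 for tails), and a fit with the replicate block called the same 5 members and 103 genes up and 10 down for tags, and 1 gene for tails.

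Tail calls were less stable. The 2 members whose mice did not overlap (Arc and Nptx2) stayed so after centring and on the log2 scale. Instead of 0 members, limma called 1 (Arc) with at least 20 tags, 1 (Arc) with at least 20 tags and tag weights, 1 (Nptx2) with at least 10 tags, 2 (both) with at least 10 tags and tag weights, and 0 to 1 when 1 mouse was left out (Arc, without dark mouse 1; 20 tags with weights or centring, and 10 tags, were chosen after seeing the data). Instead of 10 genes in all, it called 1 on the log2 scale, 3 after centring, 5 with at least 20 tags after centring, 20 with at least 20 tags and weights, 4 with at least 10 tags, 22 with at least 10 tags and weights, and 1 to 21 when 1 mouse was left out (19 without dark mouse 1, 2 without dark mouse 2, 1 without dark mouse 3 or 4 or light mouse 2, 2 without light mouse 3, 21 without light mouse 4). In the cultures, RNA-seq called 2 members up after BDNF, glu/gly and KCl for 30 min. TAIL-seq tags called 1 in each, and a minimum of 50 counts left 1, 1 and 0, since fewer genes were tested. The TE of 1 member (Plk3) was called after glu/gly with at least 10 RPM. Tail differences after glu/gly were called for 4 members with at least 20 tags, 0 with at least 100 and 1 with the median subtracted, beside 2. With at least 20 tags 2 were called after KCl for 10 min beside 1, and 1 at 30 min beside 0. The cause was not tested. Depth limits Ptgs2 and Plk3 most.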
